A study of Homo sapiens with 38 samples.

Results

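The 8 genes described here encode parts of the complexes through which a cell engaged by a death ligand survives, enters apoptosis or enters necroptosis. They are RIPK1, TRADD, FADD, CASP8, CASP9, CFLAR, CYLD and MLKL. They were chosen by symbol, as genes of the death complexes and their effectors, after the RefSeq identifiers of the deposited table had been mapped to symbols. All 8 were among the 12627 genes of that table.

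The study transfected HCT116 cells, an epithelial line from a human colorectal carcinoma, with siRNA duplexes against VPS4A, VPS4B or both, and collected RNA 72 h later to see how transcription changes when 1 or both of these paralogues are depleted. VPS4A and VPS4B encode the ATPases that disassemble ESCRT-III filaments, the membrane-cutting machinery of endosomes, dividing cells and damaged membranes. The 38 libraries fall into 9 conditions of the same parental line, with a batch label that follows the replicate number. They were made with the Ion AmpliSeq Transcriptome panel, which amplifies a short stretch of each transcript, so levels are compared between conditions and never between genes. The reference conditions were non-transfected cells (NT, 4 libraries) and cells given 60 nM of the non-targeting duplex siCTRL#1 (5 libraries). Another non-targeting duplex, siCTRL#2 (4 libraries), served as a further control, at a dose that the labels leave out. Each single depletion combined 30 nM of siCTRL#1 with 30 nM of siVPS4A#1 (5 libraries), siVPS4A#2, siVPS4B#1 or siVPS4B#2 (4 libraries each). The combined depletions used 30 nM of each duplex, siVPS4A#2 with siVPS4B#1 in siVPS4A+B#1 and siVPS4A#1 with siVPS4B#2 in siVPS4A+B#2 (4 libraries each). Libraries numbered replicate 5 exist for siCTRL#1 and siVPS4A#1 alone.

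When TNF binds its receptor, TRADD and RIPK1 assemble with ubiquitin ligases at the membrane into complex I, whose ubiquitin chains hold RIPK1 in a state that favours survival and NF-kB signalling. Once those chains are removed, for example by CYLD, RIPK1 can move into a cytosolic complex with FADD and caspase-8, where the caspase-8 homologue cFLIP, the product of CFLAR, sets how far caspase-8 is activated. Active caspase-8 starts apoptosis and cleaves RIPK1, and when it is blocked RIPK1 can pass the signal through RIPK3 to MLKL, which permeabilises the plasma membrane in necroptosis, while caspase-9 starts the separate mitochondrial route on the apoptosome.

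The levels are reads per 1000000 of the reads on the listed genes, scaled by TMM factors, and are given in the order of the replicate numbers. In the 37 libraries of the fit the total was 5090666 to 11035293 reads, with a median of 7561496. A floor of 3 reads corresponds to 0.272 to 0.589 reads per 1000000 at those depths, and it covers counting error only, since PCR reads carry no molecular identifiers. None of the 8 genes was at or under 3 reads in any of the 37 libraries, so all 8 entered each comparison, but MLKL had as few as 6 reads, TRADD 14 and CASP8 15 in a library. A single limma model covered all 9 conditions and treated the replicate number as a blocking factor, with p adjusted over all 12627 genes. Calls needed an adjusted p under 0.05 together with a change of 1.5-fold or more. The RNA comes from bulk cultures, in which fewer cells of a kind and less RNA per cell cannot be told apart.

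The labelled cell type was compared with its markers. All 6 epithelial markers in the table, EPCAM, CDH1, KRT8, KRT18, KRT19 and CDX2, were above 3 reads in all 37 libraries of the fit, and their summed level was 4363 to 4584 in NT and 4378 to 7025 in siCTRL#1. It was 6856 to 8200 in siVPS4A+B#1, 5443 to 6083 in siVPS4A+B#2 and 6503 to 7593 with siVPS4B#1, so it moved between conditions as well. Of the 6, KRT19 was the only one called higher in siVPS4A+B#1, with a mean of 2482 ± 526 in siCTRL#1 and 5122 ± 723 there, while the median log2 fold change of the 6 was -0.27 against siCTRL#1 and -0.30 against NT. Against NT, EPCAM was called lower there (-0.84), and CDH1 (-0.55), KRT18 (-0.49) and CDX2 (-0.12) were lower without a call. KRT19 was called higher (1.43) and KRT8 was higher without a call (0.41, adjusted p 0.033). EPCAM was 609 ± 38.6 in NT and 344 ± 70.6 in siVPS4A+B#1. It was equally low without depletion of either paralogue, at 348 ± 38.9 in siCTRL#1 and 355 ± 20.9 in siCTRL#2. VIL1 and CDX1 were not analysed here. The markers of other cell types held COL1A1, ACTA2, CD68 and PECAM1, while PTPRC, CD3E and ALB were not analysed here. The summed level of those 4 was 31.3 to 36.1 in NT, 35.9 to 57.5 in siCTRL#1, 145 to 209 in siVPS4A+B#1 and 115 to 161 in siVPS4A+B#2. It was also wholly above siCTRL#1 with siVPS4A#1 (62.9 to 94.5) and siVPS4B#1 (59.8 to 75.5), and overlapped it with siVPS4A#2, siVPS4B#2 and siCTRL#2. CD68 alone rose from a mean of 8.33 ± 1.97 (SD, n = 5) in siCTRL#1 to 136 ± 35.7 (n = 4) in siVPS4A+B#1 and 57.7 ± 25.4 (n = 4) in siVPS4A+B#2. This marker sum therefore moved with the combined depletions and with siVPS4A#1 and siVPS4B#1, and its part in the values of the 8 genes was not tested.

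The targeted transcripts were read first, as a check of the labels. VPS4A stood at 325, 201, 250 and 218 in NT and at 198, 173, 180, 192 and 207 in siCTRL#1. It fell to 3.52, 1.63, 1.88 and 1.71 with siVPS4A#1 and to 5.89, 6.2, 8.93 and 10.5 with siVPS4A#2. The combined depletions left 12.9, 33.9, 22.4 and 10.6 in siVPS4A+B#1 and, in siVPS4A+B#2, 3.05, 7.69, 4.32 and 5.05. Every library given a VPS4A duplex was thus below every NT and siCTRL#1 library, with log2 fold changes against siCTRL#1 of -5.92, -4.47, -3.33 and -5.05 in the order just given (SE 0.22 each; adjusted p 2e-23, 1.53e-18, 2.54e-15 and 3.32e-21). The residual VPS4A was higher in siVPS4A+B#1 than with its own duplex siVPS4A#2 alone (log2 fold change 1.13, SE 0.23, adjusted p 0.000107) and higher in siVPS4A+B#2 than with siVPS4A#1 alone (0.87, SE 0.24, adjusted p 0.00527). The latter difference was not called without replicate 3 (0.80, adjusted p 0.0661) or with the library described next (0.45, adjusted p 0.303).

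VPS4B stood at 19.9, 16.3, 29 and 23.8 in NT and at 23.9, 20.2, 16.4, 18.2 and 24.6 in siCTRL#1. It was 0.763, 0.68, 0.133 and 0.154 with siVPS4B#1, from 1 to 7 reads, and 0.945, 0.72, 1.05 and 1.57 with siVPS4B#2. The combined depletions left 0.312, 0.456, 0.358 and 1.03 in siVPS4A+B#1 and, in siVPS4A+B#2, 1.52, 1.49, 1.28 and 0.842. Each of these 16 libraries lay below every NT and siCTRL#1 library. The fitted log2 fold changes against siCTRL#1 were -3.89, -3.34, -3.78 and -3.20 (SE 0.20 each), and at so few reads their size rests on the pseudocount of 1. All 8 of the 8 combinations of a targeting condition and its target passed the threshold.

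The library labelled siVPS4A#1 replicate 2 stands apart from its group and was left out of the fit. It has 669257 reads, so that 3 reads there correspond to 4.48 reads per 1000000. VPS4A was 11.3 in it (7 reads), above the other siVPS4A#1 libraries, and VPS4B was 1.62 (1 read), below the 21.4 to 32.1 of those libraries. Over 8321 genes its centred profile correlated with the mean profile of siVPS4A+B#1 at r = 0.698, of siVPS4A+B#2 at 0.298 and of its own group at -0.102, a description across genes that are not independent replicates. Each result that involves siVPS4A#1 is therefore given without this library. The comparison of siVPS4A#1 with siCTRL#1, that of siVPS4A+B#2 with siVPS4A#1 and the interaction term of siVPS4A+B#2 were also run with it, and that value is given where a call changes. The values of siVPS4A#1 against NT are given without it only.

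TRADD encodes the adaptor that brings RIPK1 and the ubiquitin ligases to the TNF receptor. Its level was 2.99, 3.32, 2.36 and 3.93 in NT, 2.86, 3.25, 4.06, 2.75 and 4.16 in siCTRL#1 and 2.88, 3.24, 1.68 and 1.82 in siCTRL#2. With siVPS4A#1 it was 5.97, 9.28, 9.18 and 7.82, and with siVPS4A#2 5.15, 5.81, 3.94 and 3.98. All 4 siVPS4A#1 libraries were above every control library, whereas siVPS4A#2 overlapped siCTRL#1, with 2 of its 4 libraries above it. With siVPS4B#1 the level was 6.86, 6.41, 5.2 and 4.17, and with siVPS4B#2 4.88, 7.2, 3.91 and 4.42. Under combined depletion it was 7.64, 5.32, 6.09 and 3.81 in siVPS4A+B#1 and 5.92, 4.06, 4.32 and 6.01 in siVPS4A+B#2. Of these, siVPS4B#1 lay wholly above siCTRL#1, by a margin of 4.17 to 4.16, and the other 3 conditions each had 3 of 4 libraries above it and 1 within its range.

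The log2 fold change of TRADD with siVPS4A#1 was 1.06 against siCTRL#1 (SE 0.19, 2.08-fold, adjusted p 1.42e-05) and 1.12 against NT (SE 0.20, 2.18-fold, adjusted p 2.26e-05), both called. The library labelled siVPS4A#1 replicate 2 held TRADD at 4.86 (3 reads), and with it the value against siCTRL#1 was 0.92 (adjusted p 0.000277). Against siCTRL#1 the change was 0.61 with siVPS4B#1 (SE 0.19, adjusted p 0.016) and 0.61 in siVPS4A+B#1 (SE 0.19, adjusted p 0.00995), both called. Neither of these was called without replicate 1 (0.46, adjusted p 0.157, and 0.41, adjusted p 0.145) or without the library siCTRL#1 replicate 4 (0.58 in both, adjusted p 0.0428 and 0.0274), and that for siVPS4B#1 was also not called without replicate 2 (0.55, adjusted p 0.078). Both fell to 0.35 and were not called with a pseudocount of 5, and siVPS4A+B#1 was not called without TMM factors (0.46). The other conditions were not called, at 0.40 with siVPS4A#2 (adjusted p 0.767), 0.47 with siVPS4B#2 (adjusted p 0.0861) and 0.48 in siVPS4A+B#2 (adjusted p 0.0352, 1.4-fold), although siVPS4A+B#2 was called by edgeR (0.62), by DESeq2 (0.64), with a pseudocount of 0.1 (0.59) and without replicate 3 (0.63). Against NT the values were 0.68 for siVPS4A+B#1 (SE 0.19, adjusted p 0.00469), which was not called without replicate 1 (0.53, adjusted p 0.0628) or replicate 3 (0.55, adjusted p 0.0638), with a pseudocount of 5 (0.39) or without TMM factors (0.58), and 0.55 for siVPS4A+B#2 (SE 0.19, adjusted p 0.0193), 1.46-fold and under the threshold of 1.5. The last value passed it in edgeR (0.71), in DESeq2 (0.74), with a pseudocount of 0.1 (0.67) and without replicate 2 (0.66). With siVPS4B#1 alone TRADD was also called against NT (0.68, adjusted p 0.00535). The values of siVPS4B#2 (0.54, adjusted p 0.0338) and siVPS4A#2 (0.46, adjusted p 0.103) against NT were not called. By mean level the conditions ran from siCTRL#2 (2.41 ± 0.772, SD, n = 4) and NT (3.15 ± 0.654) through siCTRL#1 (3.42 ± 0.662, n = 5), siVPS4A#2 (4.72 ± 0.917), siVPS4A+B#2 (5.08 ± 1.03), siVPS4B#2 (5.1 ± 1.45), siVPS4B#1 (5.66 ± 1.22) and siVPS4A+B#1 (5.72 ± 1.59) to siVPS4A#1 (8.06 ± 1.54). Between neighbours in that order, the steps from siCTRL#1 to siVPS4A#2 and from siVPS4A+B#1 to siVPS4A#1 exceeded the larger SD of their 2 conditions, and the others did not.

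RIPK1 encodes the kinase around which both the survival and the death complexes form. Its level was 38.4, 35.3, 36 and 30.0 in NT, 27.4, 36.7, 28.8, 30.6 and 37.7 in siCTRL#1 and 26.3, 24.1, 30.8 and 29.2 in siCTRL#2. Under combined depletion it was 34.8, 31.9, 32.6 and 30.0 in siVPS4A+B#1 and 34.3, 36.9, 38 and 31.9 in siVPS4A+B#2. All 8 of these values lay within the range of NT, and all but 1 within that of siCTRL#1. With siVPS4B#2 it was 40.5, 43.8, 45.7 and 39.7, and with siVPS4B#1 30.3, 30.3, 27.2 and 34.8. The siVPS4B#2 libraries were the high ones and overlapped neither NT nor siCTRL#1, while the siVPS4B#1 libraries overlapped both. The siVPS4A#1 libraries, at 37.4, 28.8, 38.2 and 29.6, and the siVPS4A#2 libraries, at 38.4, 38.2, 40.1 and 27.7, overlapped both references too.

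RIPK1 was called in none of the comparisons. Its log2 fold change against siCTRL#1 was 0.02 in siVPS4A+B#1 (SE 0.13, 1.02-fold, adjusted p 0.918) and 0.14 in siVPS4A+B#2 (SE 0.13, 1.1-fold, adjusted p 0.404). The largest was 0.40 with siVPS4B#2 (SE 0.13, 1.32-fold, adjusted p 0.0374), below the fold threshold, beside -0.06 with siVPS4B#1 (adjusted p 0.813). Against NT the log2 fold changes were -0.11 in siVPS4A+B#1 (adjusted p 0.574) and 0.01 in siVPS4A+B#2 (adjusted p 0.941). Mean levels ran from 27.6 ± 2.97 (n = 4) in siCTRL#2 to 42.4 ± 2.81 (n = 4) in siVPS4B#2, and the other 7 means lay between 30.6 and 36.1, with the step from siVPS4A#2 to siVPS4B#2 the only one between neighbours that exceeded the larger SD of its 2 conditions.

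CYLD encodes the deubiquitinase that trims the ubiquitin chains of complex I. Its level was 17.8, 14, 16.2 and 13.5 in NT, 21, 16, 18.6, 20.3 and 15.6 in siCTRL#1 and 14.9, 14.7, 15.9 and 15 in siCTRL#2. In siVPS4A+B#1 it was 35.9, 32.1, 50.1 and 50.0, and in siVPS4A+B#2 25.2, 30.1, 31.5 and 25.5. Every library of either combined depletion was above every NT, siCTRL#1 and siCTRL#2 library, and every siVPS4A+B#1 library was above every siVPS4A+B#2 library. With single duplexes it was 13.5, 15, 14.9 and 12.7 (siVPS4A#1), 16.3, 16.4, 20.4 and 15.6 (siVPS4A#2), 24.6, 18.9, 25.1 and 18.5 (siVPS4B#1) and 16.2, 20.5, 17.3 and 13.9 (siVPS4B#2). The siVPS4A#1 libraries were all below the lowest siCTRL#1 library, siVPS4B#1 was above every NT library but overlapped siCTRL#1, and the remaining single duplexes overlapped both references. The library labelled siVPS4A#1 replicate 2 held CYLD at 42.1, from 26 reads with a 95% Poisson interval of 27.5 to 61.7, among the siVPS4A+B#1 values and above the 12.7 to 15 of its labelled group.

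For CYLD the log2 fold change of siVPS4A+B#1 was 1.10 against siCTRL#1 (SE 0.14, 2.14-fold, adjusted p 6.77e-08) and 1.37 against NT (SE 0.15, 2.59-fold, adjusted p 5.22e-10). That of siVPS4A+B#2 was 0.83 against NT (SE 0.15, 1.78-fold, adjusted p 1.13e-05) and 0.55 against siCTRL#1 (SE 0.14, 1.47-fold, adjusted p 0.00153), the last just under the fold threshold. DESeq2 put this last value over the threshold at 0.59, as did the fits without the replicate block (0.59), without replicate 1 (0.66), without replicate 4 (0.63) and without the library siCTRL#1 replicate 4 (0.60). No single duplex was called, and the log2 fold changes against siCTRL#1 were -0.36 (siVPS4A#1, adjusted p 0.0388), -0.13 (siVPS4A#2), 0.19 (siVPS4B#1) and -0.15 (siVPS4B#2). With the library that stands apart, the value for siVPS4A#1 was -0.04 (adjusted p 0.906). In order of mean level CYLD stood at 14.1 ± 1.13 (SD, n = 4) in siVPS4A#1, 15.1 ± 0.564 in siCTRL#2, 15.4 ± 1.98 in NT, 17 ± 2.7 in siVPS4B#2, 17.2 ± 2.18 in siVPS4A#2, 18.3 ± 2.45 (n = 5) in siCTRL#1, 21.8 ± 3.51 in siVPS4B#1, 28.1 ± 3.22 in siVPS4A+B#2 and 42 ± 9.4 in siVPS4A+B#1. Only the last 2 steps of that order exceeded the larger SD of the conditions they join.

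FADD encodes the adaptor that recruits caspase-8 to the death complexes. Its level was 57.4, 65.7, 59 and 63.6 in NT, 64.3, 62.6, 74.9, 69.4 and 61.1 in siCTRL#1 and 73, 119, 81 and 87.8 in siCTRL#2. Combined depletion gave 115, 57.2, 104 and 63.3 in siVPS4A+B#1 and 87.6, 90.5, 92.9 and 98.1 in siVPS4A+B#2. Of the siVPS4A+B#1 libraries 2 were above every NT and siCTRL#1 library, 1 was among them and 1 was below them, whereas the siVPS4A+B#2 libraries were all above every NT and siCTRL#1 library but within the range of siCTRL#2. The log2 fold changes of siVPS4A+B#2 were 0.42 against siCTRL#1 (SE 0.17, adjusted p 0.0377) and 0.58 against NT (SE 0.17, 1.49-fold, adjusted p 0.00494), neither called. The value against NT was over the threshold in edgeR (0.59), in DESeq2 (0.62), with the size factors of DESeq2 (0.61), with a pseudocount of 0.1 (0.59), with only the compared conditions in the model (0.61), with the library labelled siVPS4A#1 replicate 2 (0.60), without replicate 2 (0.62) and without replicate 5 (0.59). Against siCTRL#1 siVPS4A+B#1 was at 0.24 (SE 0.17, adjusted p 0.275), against NT at 0.40 (adjusted p 0.0556), or 0.60 and called without replicate 2, and the siCTRL#2 control was at 0.36 (SE 0.17, adjusted p 0.101). In the single depletions FADD ranged from 48.2 in a siVPS4B#2 library to 112 in a siVPS4A#1 library, with means of 86.9 ± 18.1 (siVPS4A#1), 75.6 ± 12.7 (siVPS4A#2), 82.1 ± 17.3 (siVPS4B#1) and 63.6 ± 12.4 (siVPS4B#2; SD, n = 4 each). No step between neighbours in the order of the 9 means, from 61.4 ± 3.89 in NT to 92.3 ± 4.44 in siVPS4A+B#2, exceeded the larger SD of its 2 conditions.

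CASP8 encodes caspase-8, the initiator that FADD recruits. Its level was 2.85, 1.9, 2.11 and 3.49 in NT, 2.69, 2.29, 3.89, 3.91 and 3.69 in siCTRL#1 and 3.17, 3.61, 6.11 and 4.38 in siCTRL#2. In siVPS4A+B#2 it was 5.75, 7.47, 8.17 and 5.89, and in siVPS4A+B#1 2.96, 4.26, 6.44 and 4.1. The siVPS4A+B#2 libraries were all above every NT and siCTRL#1 library, and siVPS4A+B#1 had 3 of 4 libraries above siCTRL#1 and 1 within its range. With single duplexes it was 3.41, 4.26, 7.19 and 6.11 (siVPS4A#1), 3.31, 1.98, 3.94 and 3.03 (siVPS4A#2), 2.29, 2.33, 5.33 and 3.24 (siVPS4B#1) and 2.68, 4.32, 3.76 and 3.54 (siVPS4B#2). Here siVPS4A#1 was high in 3 of 4 libraries and the other single duplexes lay mostly among the controls. The counts behind these values were 15 to 65 reads.

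The log2 fold change of CASP8 in siVPS4A+B#2 was 0.92 against siCTRL#1 (SE 0.19, 1.9-fold, adjusted p 8.57e-05) and 1.13 against NT (SE 0.19, 2.19-fold, adjusted p 5.81e-06), both called. In siVPS4A+B#1 it was 0.38 against siCTRL#1 (SE 0.19, adjusted p 0.11), not called, and 0.59 against NT (SE 0.19, adjusted p 0.0125), called. The last call was lost in 5 of 16 alternatives, without replicate 2 (0.49, adjusted p 0.0813), without replicate 3 (0.37, adjusted p 0.186), without TMM factors (0.50), with a pseudocount of 5 (0.31) and with only the compared conditions in the model, where the adjusted p was above 0.05. That of siVPS4A+B#2 against siCTRL#1 was lost with a pseudocount of 5 (0.54) alone. With siVPS4A#1 alone CASP8 was at 0.47 against siCTRL#1 (SE 0.18, 1.38-fold, adjusted p 0.0412), not called in limma but called by edgeR (0.63) and DESeq2 (0.64) and without replicate 3 (0.60). Against NT limma called it, at 0.68 (SE 0.20, 1.6-fold, adjusted p 0.00672). By mean level CASP8 ran from NT (2.59 ± 0.727, SD, n = 4) and siVPS4A#2 (3.07 ± 0.818) through siCTRL#1 (3.29 ± 0.754, n = 5), siVPS4B#1 (3.3 ± 1.42), siVPS4B#2 (3.57 ± 0.681), siCTRL#2 (4.32 ± 1.3), siVPS4A+B#1 (4.44 ± 1.45) and siVPS4A#1 (5.24 ± 1.72) to siVPS4A+B#2 (6.82 ± 1.19), and no step between neighbours exceeded the larger SD of its 2 conditions.

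CFLAR encodes cFLIP, whose isoforms bind FADD and caspase-8 and limit caspase-8 activation. A panel with a single amplicon for the gene cannot tell its long and short isoforms apart. Its level was 33.6, 27.5, 31.2 and 30.2 in NT, 40.1, 21.5, 31, 32.9 and 27.3 in siCTRL#1 and 37.6, 40.7, 42.8 and 33 in siCTRL#2. It rose to 62.4, 44.1, 66.6 and 63 in siVPS4A+B#1 and to 63.3, 67, 52.2 and 46.2 in siVPS4A+B#2. All 8 of these libraries were above all 13 control libraries, and the 2 combined depletions overlapped each other over most of their range. With single duplexes it was 31.2, 50.4, 27.2 and 32.1 (siVPS4A#1), 29.2, 40.9, 35.9 and 33.8 (siVPS4A#2), 36.8, 31.5, 35.3 and 34.1 (siVPS4B#1) and 26.9, 13, 29.5 and 11.3 (siVPS4B#2). A single siVPS4A#1 library, replicate 3, reached the range of the combined depletions, and siVPS4B#2 stood out on the low side, with replicates 2 and 4 below every control library and replicates 1 and 3 among them. CFLAR in the library labelled siVPS4A#1 replicate 2 was 61.5, from 38 reads with a 95% Poisson interval of 43.5 to 84.4, above every control library.

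For CFLAR the log2 fold change of siVPS4A+B#1 was 0.91 against siCTRL#1 (SE 0.19, 1.88-fold, adjusted p 0.000134) and 0.91 against NT (SE 0.19, adjusted p 0.000161). That of siVPS4A+B#2 was 0.87 against siCTRL#1 (SE 0.19, 1.83-fold, adjusted p 0.000173) and 0.87 against NT (SE 0.19, adjusted p 0.000262). All 4 values were called in the fit and in each of the 16 alternatives run. With siVPS4B#2 alone CFLAR was lower than in siCTRL#1 (log2 fold change -0.69, SE 0.19, 0.621-fold, adjusted p 0.0102), a call that ended without replicate 4 (-0.45, adjusted p 0.166) and with a pseudocount of 5 (-0.58). The other single duplexes were at 0.16 (siVPS4A#1), 0.18 (siVPS4A#2) and 0.17 (siVPS4B#1), none called. With siVPS4B#2 CFLAR was also called lower against NT (-0.69, adjusted p 0.0057). Values of single duplexes against NT were not followed through the 16 alternatives, for CFLAR or any other member. The low values here are again those of replicates 2 and 4 (13 and 11.3). In order of mean level CFLAR stood at 20.2 ± 9.36 (SD, n = 4) in siVPS4B#2, 30.6 ± 2.52 in NT, 30.6 ± 6.85 (n = 5) in siCTRL#1, 34.4 ± 2.24 in siVPS4B#1, 35 ± 4.88 in siVPS4A#2, 35.2 ± 10.3 in siVPS4A#1, 38.5 ± 4.24 in siCTRL#2, 57.2 ± 9.66 in siVPS4A+B#2 and 59 ± 10.1 in siVPS4A+B#1. The steps from siVPS4B#2 to NT and from siCTRL#2 to siVPS4A+B#2 exceeded the larger SD of their 2 conditions, and the others did not.

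**Figure D1:**
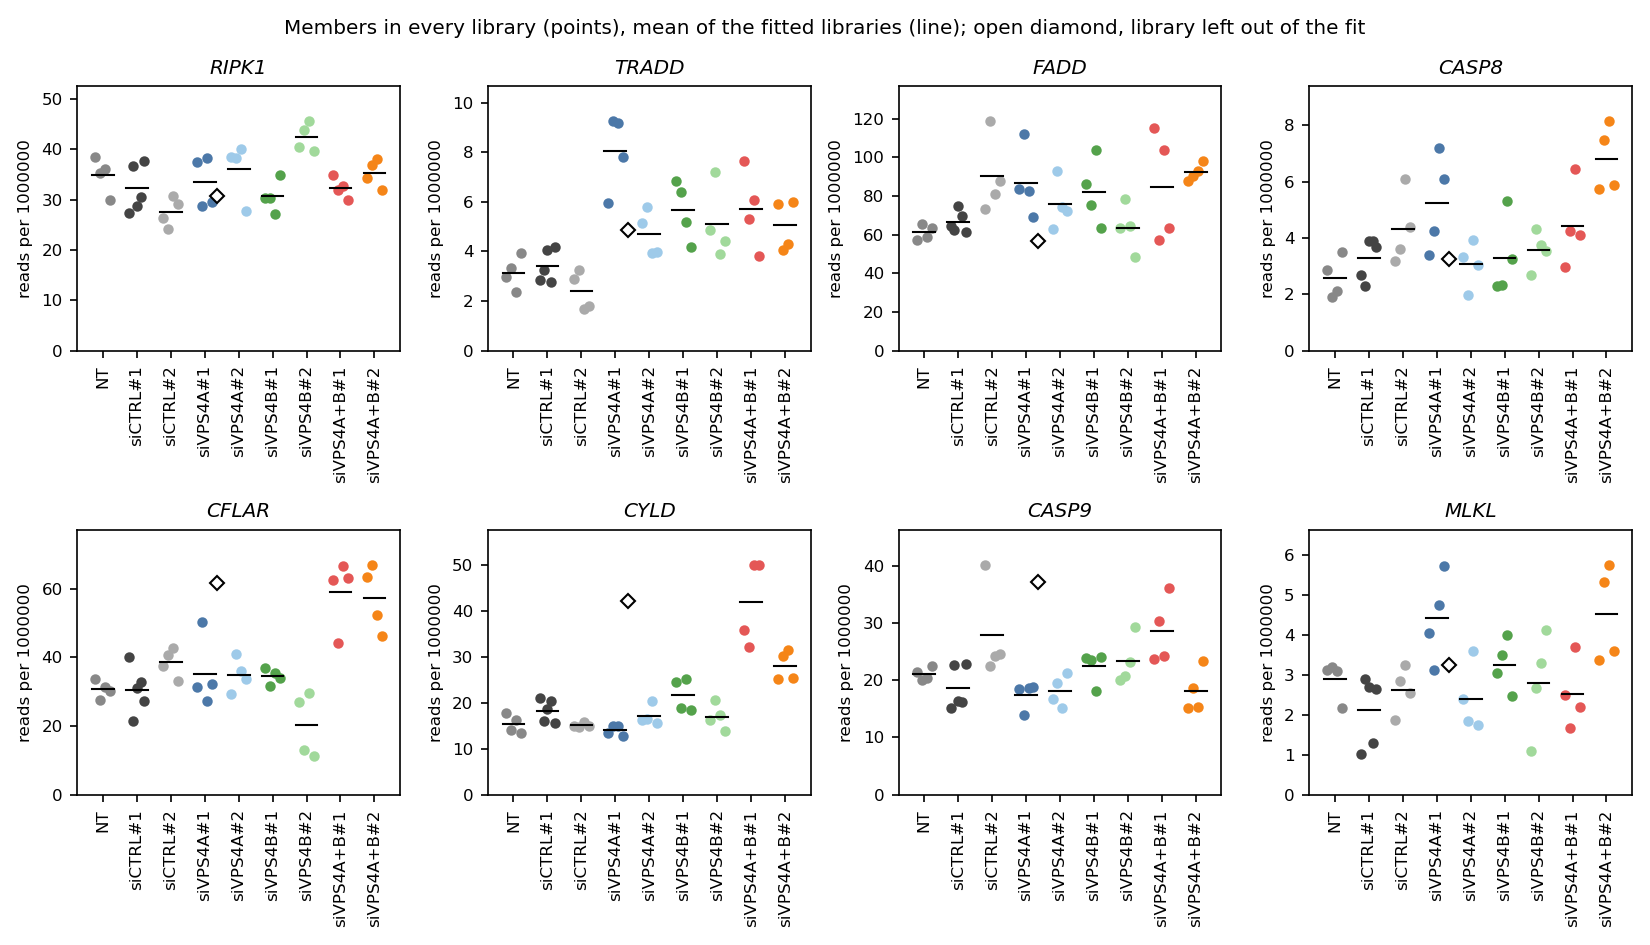
Level of each of the 8 genes in every library, in reads per 1000000 (vertical axis, from 0, on a scale of its own for each gene), by condition (horizontal axis). Points are libraries, lines are means of the fitted libraries and the open diamond is the library labelled siVPS4A#1 replicate 2, which was left out of the fit; CFLAR and CYLD are above all control libraries in all 8 libraries of combined depletion, and RIPK1 lies among them in siVPS4A+B#1.

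CFLAR and CYLD are the members whose values lay above all controls in both combined depletions, so their promoters are shown. How many of all genes were separated in this way was not counted. The sequences come from the RefSeq promoter table on GRCh38.p14, which holds 17 windows for 7 of the 8 genes, TRADD being without one. Each window covers the 250 bases before an annotated start. After the calls were known, 7 letter patterns were searched on both strands in these windows and in all 35116 windows of the table. The pattern GGGNNNTTCC, a form of the NF-kB site, was found in 2 of the 17 windows, 1 of 4 for CFLAR and 1 of 3 for CYLD, and in 5.67% of all windows. The windows below, both read on the + strand, hold it in capitals, in CFLAR from base -97 to -88 and in CYLD, on the other strand, from base -189 to -180, counted back from the start.
CFLAR: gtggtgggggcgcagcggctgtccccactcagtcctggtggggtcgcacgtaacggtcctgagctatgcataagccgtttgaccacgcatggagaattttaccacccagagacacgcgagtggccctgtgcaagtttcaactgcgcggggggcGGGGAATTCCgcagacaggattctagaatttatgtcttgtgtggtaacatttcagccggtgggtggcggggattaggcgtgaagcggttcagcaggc
CYLD: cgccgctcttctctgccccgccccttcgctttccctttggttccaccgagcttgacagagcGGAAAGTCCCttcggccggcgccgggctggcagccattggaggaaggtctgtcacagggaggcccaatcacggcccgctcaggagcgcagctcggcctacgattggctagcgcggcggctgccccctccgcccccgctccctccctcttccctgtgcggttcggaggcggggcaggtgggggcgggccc
These are chr2:201118466-201118715 and chr16:50741836-50742085 on GRCh38.p14. Of the other patterns, GGGNNTTCC was in 2 of the 17 windows, of CASP8 and CFLAR (5.78% of all windows), GGGNNTTTCC in 1 of CYLD (1.73%) and GGGANTTTCC in 1 of CYLD (0.527%). Within CFLAR and within CYLD these matches fall on the same bases as the first, and the CASP8 match stands alone. The AP-1 pattern TGANTCA was in 2 windows, of CASP8 and CFLAR (6.57%), the CRE pattern TGACGTCA in 1 of CYLD (1.65%) and the GC box GGGCGG in 12 of 17, of CASP8, CASP9, CFLAR, CYLD, FADD and RIPK1 (42.6%). A match describes letters in a window and was not tested as a binding site.

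The 8 genes lie on 5 chromosomes. On GRCh37 (hg19), CFLAR (chr2:201980877-202041410, + strand) and CASP8 (chr2:202098166-202226559, + strand) have 56.8 kb between their annotated spans, and that stretch holds CASP10 (chr2:202047595-202094151, + strand). CYLD (chr16:50775961-50835846, + strand), TRADD (chr16:67188088-67193812, - strand) and MLKL (chr16:74705753-74734858, - strand) share a chromosome without being close. RIPK1 is at chr6:3064058-3115421 (+ strand), CASP9 at chr1:15817327-15853029 (- strand) and FADD at chr11:70049402-70053496 (+ strand). Against siCTRL#1, CFLAR and CASP8 were called in siVPS4A+B#2, and CFLAR and CASP10 in siVPS4A+B#1.

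CASP9 encodes caspase-9, the initiator of the mitochondrial route. Its level was 21.4, 20.0, 20.3 and 22.5 in NT, 15.2, 22.6, 16.3, 16.2 and 22.8 in siCTRL#1 and 40.2, 22.4, 24.3 and 24.6 in siCTRL#2. In siVPS4A+B#1 it was 23.7, 30.3, 24.3 and 36.1, and in siVPS4A+B#2 15.1, 18.6, 15.4 and 23.3. The siVPS4A+B#1 libraries were all above every NT and siCTRL#1 library but inside the range of siCTRL#2. The siVPS4A+B#2 libraries overlapped both references, with 1 above and 1 below every siCTRL#1 library and 1 above and 3 below every NT library. With single duplexes it was 18.4, 14, 18.6 and 18.8 (siVPS4A#1), 16.7, 19.5, 15.1 and 21.3 (siVPS4A#2), 23.9, 23.5, 18.1 and 24.1 (siVPS4B#1) and 20.0, 20.7, 23.1 and 29.3 (siVPS4B#2). The siVPS4B duplexes were on the high side and overlapped both references, while siVPS4A#1 was below every NT library and overlapped siCTRL#1. The library labelled siVPS4A#1 replicate 2 held CASP9 at 37.2, from 23 reads with a 95% Poisson interval of 23.6 to 55.9, above every NT and siCTRL#1 library.

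For CASP9 the log2 fold change of siVPS4A+B#1 was 0.65 against siCTRL#1 (SE 0.16, 1.57-fold, adjusted p 0.00117), called, and 0.41 against NT (SE 0.16, 1.33-fold, adjusted p 0.0402), not called. The call was lost without replicate 4 (0.50, adjusted p 0.0331) and without the library siCTRL#1 replicate 4 (0.56, adjusted p 0.0085), and also without TMM factors (0.47) and with a pseudocount of 5 (0.55). In siVPS4A+B#2 the value was 0.01 against siCTRL#1 (SE 0.16, adjusted p 0.956), so the combined depletions differed in their CASP9 values by more than either SE, a difference that was not tested. The siCTRL#2 control was itself at 0.59 against siCTRL#1 (SE 0.16, adjusted p 0.00348), called, with 0.36 (adjusted p 0.114) without replicate 1 and 0.51 (adjusted p 0.0218) without the library siCTRL#1 replicate 4. CASP9 means ran from 17.5 ± 2.29 in siVPS4A#1 (SD, n = 4) to 27.9 ± 8.29 in siCTRL#2 and 28.6 ± 5.79 in siVPS4A+B#1, and no step between neighbours exceeded the larger SD of its 2 conditions.

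MLKL encodes the pseudokinase that breaches the plasma membrane in necroptosis. Its level was 3.13, 3.2, 3.11 and 2.18 in NT, 1.01, 2.89, 2.71, 1.3 and 2.65 in siCTRL#1 and 1.88, 2.86, 3.24 and 2.55 in siCTRL#2. In siVPS4A+B#2 it was 3.38, 5.34, 5.77 and 3.61, and in siVPS4A+B#1 2.49, 1.67, 3.7 and 2.2. The siVPS4A+B#2 libraries were all above every NT and siCTRL#1 library, while siVPS4A+B#1 overlapped both. With single duplexes it was 4.05, 3.13, 4.76 and 5.74 (siVPS4A#1), 2.39, 1.85, 3.59 and 1.75 (siVPS4A#2), 3.05, 3.5, 4 and 2.47 (siVPS4B#1) and 1.1, 2.67, 3.31 and 4.13 (siVPS4B#2). All siVPS4A#1 libraries were above siCTRL#1 and 3 of 4 above NT, and the other single duplexes overlapped both references. The counts behind these values were 6 to 47 reads.

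The log2 fold change of MLKL was 0.82 with siVPS4A#1 (SE 0.20, 1.77-fold, adjusted p 0.00093) and 0.93 in siVPS4A+B#2 (SE 0.20, 1.91-fold, adjusted p 0.00021) against siCTRL#1, both called. With a pseudocount of 5 these fell to 0.40 and 0.46 and neither was called, so at 6 to 47 reads their size depends on the pseudocount. With the library labelled siVPS4A#1 replicate 2, which held MLKL at 3.24 (2 reads), the value for siVPS4A#1 was 0.77 (adjusted p 0.00195). Against NT siVPS4A#1 was at 0.37 (SE 0.22, 1.3-fold, adjusted p 0.175), not called, siVPS4A+B#2 was at 0.48 (SE 0.21, 1.4-fold, adjusted p 0.0529), not called except without replicate 1 (0.62), and siCTRL#1 itself was at -0.45 against NT (SE 0.20, adjusted p 0.121). In siVPS4A+B#1 MLKL was at 0.28 against siCTRL#1 (SE 0.20, adjusted p 0.296) and -0.17 against NT (SE 0.21, adjusted p 0.537). With siVPS4B#1 alone it was at 0.57 (SE 0.20, 1.48-fold, adjusted p 0.0366), just under the fold threshold, and was called without replicate 2 (0.67) and with a pseudocount of 0.1 (0.80). MLKL means ran from 2.11 ± 0.882 in siCTRL#1 (SD, n = 5) through 2.91 ± 0.484 in NT and 3.25 ± 0.65 in siVPS4B#1 to 4.42 ± 1.1 in siVPS4A#1 and 4.52 ± 1.2 in siVPS4A+B#2 (n = 4 each), and the step from siVPS4B#1 to siVPS4A#1 was the only one between neighbours that exceeded the larger SD of its 2 conditions.

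The combined depletions were then counted over the 8 genes, to ask which of them change when both paralogues are lost. Against siCTRL#1, siVPS4A+B#1 called 4 of 8, CASP9, CFLAR, TRADD and CYLD, all higher, beside 22.1% of the 12627 genes, with a median log2 fold change of 0.49 over the 8 and -0.02 over all genes. In siVPS4A+B#2 the same comparison called 3 of 8, CASP8, CFLAR and MLKL, all higher, beside 28.7% of all genes, with medians of 0.52 and -0.02. Against NT, siVPS4A+B#1 called 4 of 8 (CASP8, CFLAR, TRADD and CYLD) beside 26.0% of all genes, and siVPS4A+B#2 called 3 of 8 (CASP8, CFLAR and CYLD) beside 28.8%. Outside the stricter rule below, each share of all genes counts calls in either direction. In this fit the shares of the 8 genes lie somewhat above these backgrounds for siVPS4A+B#1 and close to them for siVPS4A+B#2. Without the library siCTRL#1 replicate 4, CASP9 (0.56) and TRADD (0.58) were not called in siVPS4A+B#1 against siCTRL#1. In siVPS4A+B#2, DESeq2 also called TRADD (0.64) and CYLD (0.59) against siCTRL#1, and FADD (0.62) and TRADD (0.74) against NT. The order of shares and backgrounds thus depends on the settings. In these 4 comparisons no member was called lower. These comparisons share their control libraries.

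Single duplexes were compared with siCTRL#1 to ask what loss of either paralogue does alone. With siVPS4A#1, 2 of 8 were called, TRADD and MLKL, beside 22.0% of all genes, a share close to the background. With siVPS4A#2 limma called 0 of 8 beside 0.0871% of all genes, with 1 of 8, TRADD, at an unadjusted p under 0.05, and edgeR and DESeq2 each called 0. With siVPS4B#1 1 of 8 was called, TRADD, beside 12.9% of all genes. With siVPS4B#2 1 of 8 was called, CFLAR and lower, beside 7.57%. Both shares are near the background, and the duplexes against the same gene did not call the same member.

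**Figure D2:**
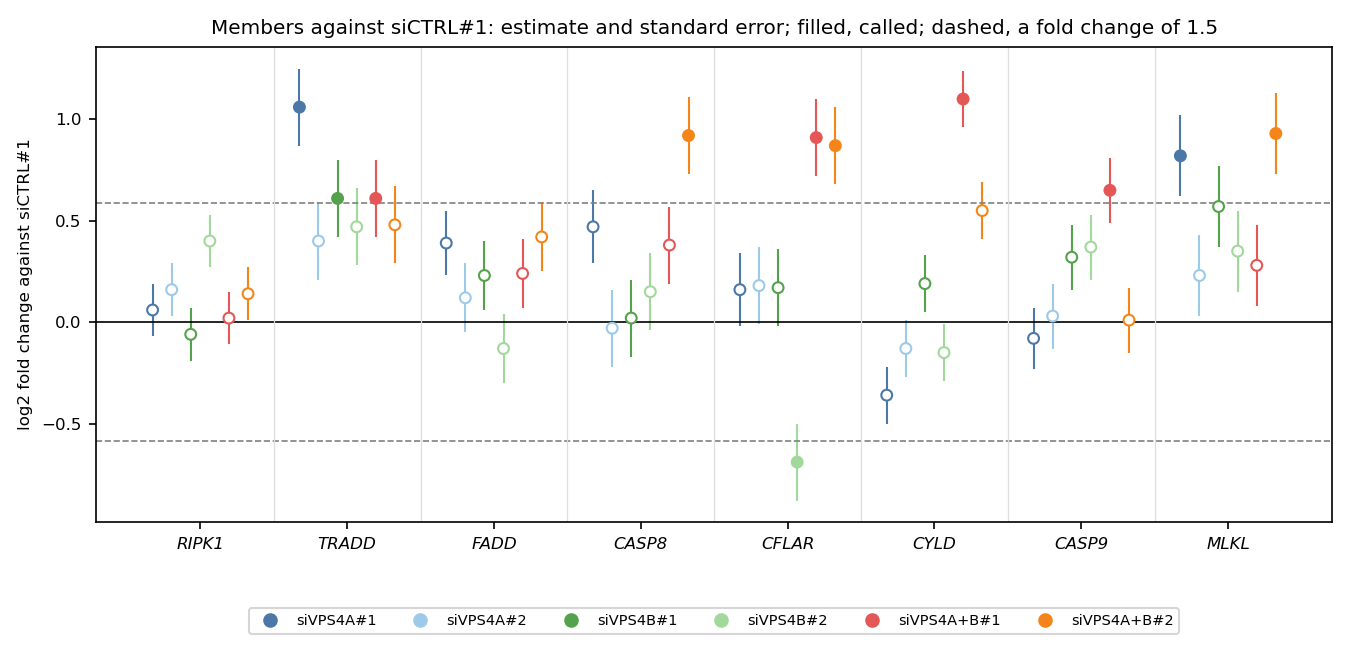
Log2 fold change of each of the 8 genes against siCTRL#1 (vertical axis) for the 6 depletions, by gene (horizontal axis). Points are estimates, bars are standard errors, filled points are called and dashed lines mark a fold change of 1.5; CFLAR is at 0.91 and 0.87 in the combined depletions and at -0.69 with siVPS4B#2, and TRADD is above 0 in all 6.

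The controls were compared to see how far the 8 genes move without depletion of VPS4A or VPS4B. In siCTRL#1 against NT limma called 0 of 8 beside 9.05% of all genes, with 1 of 8, MLKL, at an unadjusted p under 0.05, and edgeR and DESeq2 each called 0. In siCTRL#2 against siCTRL#1 it called 1 of 8, CASP9 and higher, beside 16.8% of all genes, with 3 of 8 at an unadjusted p under 0.05 and a median of 0.33 over the 8. The CASP9 call was kept in 9 of 16 alternatives. It ended without replicate 1 (0.36) or the library siCTRL#1 replicate 4 (0.51), without the block, with other scalings, with a pseudocount of 5 and with the library that stands apart.

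A stricter rule asked for a call in the same direction by both duplexes, or both combined depletions, against both NT and siCTRL#1. For combined depletion CFLAR alone met it, 1 of 8 and higher, beside 3.96% of all genes called higher and 4.16% called lower, of which the latter held 0 of the 8. CYLD missed it through the 1.47-fold change of siVPS4A+B#2 against siCTRL#1, and met it in DESeq2 (0.59) and without replicate 1 (0.66), replicate 4 (0.63) or the library siCTRL#1 replicate 4 (0.60). It also met it without the replicate block. TRADD met it in edgeR, in DESeq2 and with a pseudocount of 0.1. At an unadjusted p under 0.05, with no fold threshold, 4 of 8 were higher in all 4 comparisons, CASP8, CFLAR, TRADD and CYLD, beside 8.78% of all genes.

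For VPS4A duplexes limma called 0 of the 8 higher, beside 0% of all genes, and 0 lower, beside 0.00792%, which is VPS4A itself, and edgeR and DESeq2 also called 0 of 8. For VPS4B duplexes limma called 0 of 8 higher beside 0.483% of all genes and 0 lower beside 0.634%, and edgeR and DESeq2 again called 0. At an unadjusted p under 0.05 TRADD was higher in all 4 VPS4A comparisons and in all 4 VPS4B comparisons, 1 of 8 in each case, beside 19 and 305 of all 12627 genes. CFLAR was called with siVPS4B#2 (-0.69) and not with siVPS4B#1 (0.17, adjusted p 0.564).

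Each combined depletion was set against the single duplexes it holds, to ask what loss of the other paralogue adds. Against siVPS4A#2, siVPS4A+B#1 called 3 of 8 (CASP9, CFLAR and CYLD, all higher) beside 23.5% of all genes, and against siVPS4B#1 it called 2 of 8 (CFLAR and CYLD, higher) beside 9.88%. Against siVPS4A#1, siVPS4A+B#2 called 2 of 8 (CFLAR and CYLD, higher) beside 17.5%, and against siVPS4B#2 it called 4 of 8 (CASP8, CFLAR, CYLD and MLKL, higher) beside 25.7%. With the library labelled siVPS4A#1 replicate 2, the comparison with siVPS4A#1 called 0 of 8. CFLAR and CYLD were thus called in all 4 comparisons of a combined depletion with its single duplexes, and no other member in more than 1 of them. How many of all genes were called in all 4 was not counted, so whether these members stand out cannot be told.

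For CYLD these log2 fold changes were 1.22 against siVPS4A#2 (SE 0.15, adjusted p 1.05e-08) and 0.90 against siVPS4B#1 (SE 0.15, adjusted p 1.45e-05) for siVPS4A+B#1. For siVPS4A+B#2 they were 0.91 against siVPS4A#1 (SE 0.15, adjusted p 1.48e-05), or 0.57 (adjusted p 0.054) with the library that stands apart, and 0.70 against siVPS4B#2 (SE 0.15, adjusted p 0.000168). In CYLD every library of a combined depletion was above every fitted library of its single duplexes. The library that stands apart, at 42.1, was above every siVPS4A+B#2 library. For CFLAR they were 0.73 against siVPS4A#2 (SE 0.19, adjusted p 0.0021) and 0.75 against siVPS4B#1 (SE 0.19, adjusted p 0.00473) for siVPS4A+B#1. For siVPS4A+B#2 CFLAR was at 0.71 against siVPS4A#1 (SE 0.20, adjusted p 0.0063) and at 1.56 against siVPS4B#2 (SE 0.19, 2.94-fold, adjusted p 1.72e-08). Of these, the comparison with siVPS4A#1 was not called with the library that stands apart (0.50, adjusted p 0.103), without replicate 1 (0.63, adjusted p 0.055), without replicate 2 (0.57, adjusted p 0.034), without TMM factors (0.54) or with only the compared conditions in the model (adjusted p 0.0757). That with siVPS4A#2 was not called without TMM factors (0.58), and the other 2 were called in each of the 16 alternatives.

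The remaining calls of this kind concerned genes called once. CASP9 was at 0.62 in siVPS4A+B#1 against siVPS4A#2 (SE 0.16, adjusted p 0.00221), or 0.58 without replicate 4, 0.47 without TMM factors and 0.53 with a pseudocount of 5, all under the fold threshold, and at 0.33 against siVPS4B#1 (SE 0.16, adjusted p 0.171). CASP8 was at 0.77 in siVPS4A+B#2 against siVPS4B#2 (SE 0.19, adjusted p 0.00118), a call lost with a pseudocount of 5, and at 0.46 against siVPS4A#1 (SE 0.20, adjusted p 0.0854), the latter called without replicate 4 (0.74). In siVPS4A+B#1 it was at 0.41 against siVPS4A#2 (SE 0.19, adjusted p 0.0904), called without replicate 1 (0.59). MLKL was at 0.59 against siVPS4B#2 (SE 0.21, adjusted p 0.021), a call that ended without replicate 1 (0.43, adjusted p 0.138), replicate 2 (0.52, adjusted p 0.0914) or replicate 3 (0.57, adjusted p 0.0721), in edgeR (adjusted p 0.0695) and DESeq2 (adjusted p 0.0607), without TMM factors (0.50) and with a pseudocount of 5 (0.29). FADD was at 0.55 against siVPS4B#2 (SE 0.17, adjusted p 0.0086), not called, but called without replicate 2 (0.67, adjusted p 0.00278). TRADD went the other way, at -0.58 in siVPS4A+B#2 against siVPS4A#1 (SE 0.20, adjusted p 0.0307), not called in limma but called by edgeR (-0.65) and DESeq2 (-0.66), without TMM factors (-0.73), with a pseudocount of 0.1 and without replicate 1 (-0.80) or replicate 5 (-0.63). With the library labelled siVPS4A#1 replicate 2, TRADD was at -0.40 (adjusted p 0.176).

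An interaction term asked whether a combined depletion differs from the sum of its single effects on the log2 scale. For siVPS4A+B#1 it called 1 of 8, CYLD and positive, beside 6.20% of all genes, and for siVPS4A+B#2 3 of 8, CFLAR and CYLD positive and TRADD negative, beside 18.3%. The CYLD term was 1.03 in siVPS4A+B#1 (SE 0.20, adjusted p 0.000811), or 0.79 (adjusted p 0.055) without replicate 4, and 1.06 in siVPS4A+B#2 (SE 0.20, adjusted p 0.000164), or 0.75 (adjusted p 0.0876) with the library that stands apart. CYLD was thus 2.04 and 2.09 times as high as the sum of the single effects gives. The CFLAR term was 1.40 in siVPS4A+B#2 (SE 0.26, adjusted p 0.000141), or 1.21 (adjusted p 0.00727) with that library, and 0.56 in siVPS4A+B#1 (SE 0.27, adjusted p 0.23), not called. In siVPS4A+B#2 the CFLAR term takes in the low values of siVPS4B#2, the single duplex under which CFLAR fell. The TRADD term was -1.05 in siVPS4A+B#2 (SE 0.27, adjusted p 0.0042), or -0.90 (adjusted p 0.0385) with the library that stands apart and -0.78 (adjusted p 0.07) without replicate 2, and -0.40 in siVPS4A+B#1 (SE 0.27, adjusted p 0.453). RIPK1 had terms of -0.09 and -0.32, neither called.

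**Figure D3:**
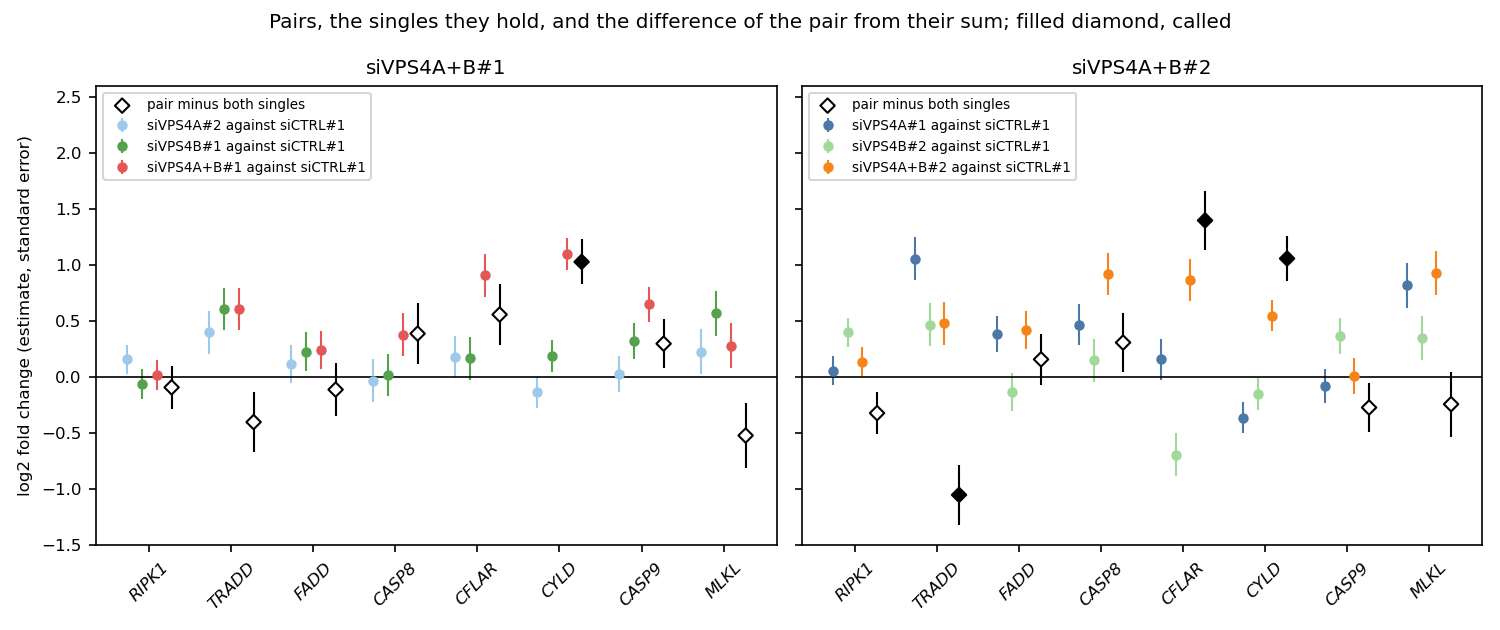
Log2 fold change against siCTRL#1 (vertical axis) of each gene (horizontal axis) in a combined depletion and in the single duplexes it holds, with the interaction term as a diamond, for siVPS4A+B#1 (left) and siVPS4A+B#2 (right). Bars are standard errors and filled diamonds are called; CYLD has a positive term in both (1.03 and 1.06), CFLAR a called one in siVPS4A+B#2 (1.40) and TRADD a negative one there (-1.05).

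Across the 37 libraries, on log2 levels centred within replicate number, the members varied together only in part. The highest Pearson r was 0.624, between CFLAR and CYLD, then 0.533 between CFLAR and FADD and 0.503 between CASP8 and MLKL, and the lowest was -0.398, between RIPK1 and CFLAR. These values describe libraries that share conditions and carry no test. Among 8324 genes with a mean of at least 10 reads per 1000000, the pattern most like that of CYLD was CXCL8 (r = 0.925), then CD68 (0.922) and FSTL3 (0.907). Those most like CFLAR were FAM83G (0.863), AP1M1 (0.862) and LRRC59 (0.832), and those most like CASP8 were EMP1 (0.841), DUSP16 (0.81) and FTH1 (0.79). For TRADD they were LAMB2 (0.802), LMBR1L (0.801) and CLSTN3 (0.795), for CASP9 MMADHC (0.812), LIX1L (0.796) and UBQLN2 (0.78), and for MLKL CSNK1G1 (0.74), CSTB (0.739) and RDH10 (0.725). No gene is among the 3 most like more than 1 of these members, and RIPK1 and FADD were left out of this comparison.

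Around RIPK1, the ubiquitin and kinase genes of complex I were read from a list of 22. In siVPS4A+B#1 against siCTRL#1 7 were called higher and 0 lower, and in siVPS4A+B#2 8 higher and 2 lower, beside 22.1% and 28.7% of all genes called in either direction, with medians of 0.34 and 0.19. The same 2 shares are the background for the counts of the other lists against siCTRL#1. Both depletions called 6, all higher, and RIPK1 itself was not among the genes that moved. BIRC3, which encodes the ligase cIAP2, had the largest change of the list, from 8.88 ± 1.18 (SD, n = 5) in siCTRL#1 to 272 ± 91 and 264 ± 40.1 (n = 4 each), with log2 fold changes of 4.71 and 4.73 (SE 0.20, adjusted p 2.82e-21 and 1.61e-21). TNIP1, which encodes a ubiquitin-binding partner of A20, went from 96 ± 11 to 309 ± 37.4 and 216 ± 31.7, with log2 fold changes of 1.69 and 1.17 (SE 0.15). TNFAIP3, the gene of A20 itself, which edits ubiquitin on RIPK1, went from 4.2 ± 1.43 to 13.8 ± 2.28 and 9.03 ± 2.62, with log2 fold changes of 1.63 and 1.04 (SE 0.21). Against siCTRL#1 it was called lower with siVPS4A#1 alone (-0.95), at 1.76 ± 0.771 beside 2.06 ± 0.256 in NT. IKBKG was also called for both (0.62 and 1.32), from 0 to 5 reads in siCTRL#1, the former not without replicate 1 (0.43) or 3 (0.56). IKBKG was at or under 3 reads in 16 of 37 libraries, so the size of these values rests on the pseudocount of 1. Since a near-identical copy lies beside the gene, its reads cannot be assigned with certainty. Among the rest, IKBKE was at 0.34 and 1.00, called in siVPS4A+B#2, beside a lower call in siCTRL#2 (-0.91), and TRAF5 at -0.50 and -0.66, the latter called but not without replicate 2 (-0.48) or 3 (-0.58) and the former called only without replicate 4 (-0.61).

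The death receptors and ligands were read from 7 genes, with TNFSF10, FASLG and LTA not analysed here. Of the 7, 3 were called higher in siVPS4A+B#1 and 2 in siVPS4A+B#2, and 0 lower in either, beside 22.1% and 28.7% of all genes, with a median of 0.47 in both. TNFRSF10A, which encodes the TRAIL receptor DR4, went from 28.7 ± 4.72 (SD, n = 5) in siCTRL#1 to 54.5 ± 9.86 and 52.7 ± 8.47 (n = 4 each), with log2 fold changes of 0.93 and 0.89 (SE 0.13, adjusted p 3.61e-07 and 5.27e-07). TNFRSF1A, the gene of the TNF receptor that TRADD binds, went from 181 ± 16.3 to 277 ± 33 and 215 ± 52, beside 282 ± 41.6 with siVPS4B#1 alone and 247 ± 17.5 in siCTRL#2. It was called at 0.60 in siVPS4A+B#1, but not without replicate 2 (0.58) or 3 (0.54), and not called at 0.21 in siVPS4A+B#2. TNFRSF25, a receptor that also signals through TRADD, was at 0.47 and 0.50, not called. TNF was called for both, but it was at or under 3 reads in 32 of 37 libraries, so no fold is given. Its calls ended without replicate 1 (adjusted p 0.125 and 0.0691) and, in siVPS4A+B#2, without replicate 2 (adjusted p 0.206).

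The partners of RIPK1 and MLKL in necroptosis were read from 8 genes, with RIPK3, ZBP1 and TICAM1 not analysed here. The kinase that stands between RIPK1 and MLKL is therefore without a value. Against siCTRL#1, 0 were called higher and 3 lower in siVPS4A+B#1 and 0 higher and 5 lower in siVPS4A+B#2, beside 22.1% and 28.7% of all genes, with medians of -0.39 and -0.70. Against NT, 3 were called lower in each, beside 26.0% and 28.8% (medians -0.40 and -0.34). Lower calls were not confined to combined depletion, with 4 for siVPS4A#1 beside 22.0% (median -0.61) and 2 for the non-targeting siCTRL#2 beside 16.8% (median -0.40) against siCTRL#1. FLOT1, which encodes a flotillin reported to carry MLKL away from the membrane, fell from 120 ± 27.3 (SD, n = 5) in siCTRL#1 to 29.2 ± 4.61 and 45.4 ± 10.3 (n = 4 each), with log2 fold changes of -1.98 and -1.37 (SE 0.17, adjusted p 8.27e-12 and 2.77e-08). FLOT1 was also low without depletion of either paralogue, at 35.1 ± 7.78 in siCTRL#2 (-1.73, adjusted p 3.68e-10), and at 40.1 ± 9.11 with siVPS4A#1 and 45.1 ± 8.76 with siVPS4B#1. FLOT2, the gene of its partner, fell from 187 ± 25.1 to 101 ± 29.4 and 63.3 ± 9.27, with log2 fold changes of -0.93 and -1.57 (SE 0.18). FLOT2 was also lower than in siCTRL#1 in NT (126 ± 31.2), in siCTRL#2 (120 ± 17.2) and with siVPS4A#1 (54.9 ± 11.7), and against NT siVPS4A+B#1 was not called (-0.32, adjusted p 0.156) while siVPS4A+B#2 was (-0.95, adjusted p 3.46e-05). PELI1, which encodes a ubiquitin ligase that acts on RIPK1 and RIPK3, fell from 13.3 ± 3 to 7.18 ± 1.73 and 3.91 ± 0.998, with log2 fold changes of -0.81 and -1.55 (SE 0.18), and was at 5.32 ± 2.02 with siVPS4A#1 alone and at 16.3 ± 2.18 in siCTRL#2. IPMK, a kinase gene of the inositol phosphate pathway that MLKL depends on, was at -0.29 and -0.73, and PPM1B, a phosphatase gene, at 0.06 and -0.67, each called in siVPS4A+B#2 against siCTRL#1 but not against NT (-0.37, adjusted p 0.101, and -0.32, adjusted p 0.103).

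Among 5 other caspases, with CASP1, CASP5 and CASP14 not analysed here, 1 was called higher and 1 lower in siVPS4A+B#1 and 0 higher and 1 lower in siVPS4A+B#2, with medians of -0.08 and -0.07. CASP2 was the gene called lower in both, from 177 ± 13.3 (SD, n = 5) in siCTRL#1 to 96.7 ± 9.91 and 96.8 ± 10.6 (n = 4 each), with log2 fold changes of -0.88 and -0.88 (SE 0.11, adjusted p 2.14e-08 and 1.28e-08). It was also called lower with siVPS4A#1 alone (108 ± 15.8, -0.72, adjusted p 6.68e-07) and stood at 136 ± 4.87 with siVPS4B#1. CASP10, the gene next in kind to CASP8, was at 0.92 and 0.32, called in siVPS4A+B#1, but against NT in neither (0.54, adjusted p 0.0772, and -0.06, adjusted p 0.874). CASP6 was at -0.49 and -0.58, not called, although the latter was called without replicate 1 (-0.68), 3 (-0.61) or 5 (-0.59) or the library siCTRL#1 replicate 4 (-0.59).

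For the apoptosome of CASP9 and its inhibitors, 8 genes were read, with BIRC7 and XAF1 not analysed here, and 1 was called higher and 2 lower in siVPS4A+B#1 against 1 higher and 1 lower in siVPS4A+B#2 (medians 0.27 and 0.02). XIAP, whose product binds and inhibits caspase-9, went from 16.6 ± 1.74 (SD, n = 5) to 39.6 ± 10.1 and 28 ± 4.37 (n = 4 each), with log2 fold changes of 1.17 and 0.71 (SE 0.16, adjusted p 1.9e-07 and 0.000354). The latter was 0.55 without replicate 3, under the fold threshold, and against NT siVPS4A+B#2 was at 0.51, not called. XIAP was also at 24.3 ± 1.28 in siCTRL#2, 21 ± 3.42 with siVPS4A#1, 22.1 ± 3.14 with siVPS4B#1 and 22 ± 1.95 with siVPS4B#2. It was at 14.9 ± 1.78 with siVPS4A#2 and 19.5 ± 3.96 in NT. BIRC5, the gene of survivin, fell from 228 ± 19.4 to 127 ± 14.5 and 94.2 ± 17.7, with log2 fold changes of -0.94 and -1.38 (SE 0.16), and was also called lower with siVPS4A#1 alone (-2.06), with siVPS4B#1 (120 ± 24.4, -1.04) and with siVPS4B#2 (133 ± 15.5, -0.88). APAF1, whose product forms the apoptosome with caspase-9, was at -0.63 and -0.35, called in siVPS4A+B#1 but not without replicate 4 (-0.56) or replicate 5 (-0.58). BIRC6 was at 0.44 and 0.36, and DIABLO was at or under 3 reads in 8 of 37 libraries.

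Among 8 other death adaptors and decoys, with FAIM not analysed here, 1 was called higher and 2 lower in siVPS4A+B#1 and 1 higher and 1 lower in siVPS4A+B#2 (medians 0.02 and -0.15). PEA15, whose product binds FADD and caspase-8, went from 72.2 ± 5.8 (SD, n = 5) to 171 ± 17.5 and 129 ± 4.98 (n = 4 each), with log2 fold changes of 1.24 and 0.84 (SE 0.14, adjusted p 4e-09 and 5.41e-06). Like CFLAR, which also acts at FADD and caspase-8, it was called higher in both. NOL3 was at -0.30 and -0.73, the latter not called without replicate 1 (adjusted p 0.0525), 2 (0.058) or 3 (0.28), and RIPK4 at -0.60 and -0.11, the former not called without replicate 2 (-0.49), 4 (-0.44), 5 (-0.57) or the library siCTRL#1 replicate 4 (-0.46). RIPK4 was also called lower with siVPS4B#1 and siVPS4B#2 alone (-0.62 each). Among 8 caspase substrates and effectors 1 was called higher and 0 lower in siVPS4A+B#1 and 0 higher and 2 lower in siVPS4A+B#2 (medians 0.03 and -0.07). PARP1 was at -0.43, or -0.60 and called without replicate 4, and -1.12, from 526 ± 33.2 in siCTRL#1 to 409 ± 96.9 and 253 ± 59.9, while it was 184 ± 28.9 (-1.56) with siVPS4B#2 alone. PANX1 was at 0.69 and 0.31, the former 0.56 without replicate 3. Of the 6 epithelial markers, KRT19 was called higher in siVPS4A+B#1 (1.03, against 0.32 in siVPS4A+B#2) and with siVPS4B#1 alone (0.72), and KRT8 was at -0.25 and -0.44. With NT as the reference KRT8 was instead at 0.41 and 0.22, not called, and KRT19 was called in both (1.43 and 0.72). Of the 4 markers of other cell types, CD68 was called in both against siCTRL#1, at 3.92 and 2.65 (SE 0.19), and COL1A1 in siVPS4A+B#2 at 1.33 (0.41 in siVPS4A+B#1). CD68 was also called with siVPS4B#1 alone (1.36) and COL1A1 with siVPS4A#1 alone (0.84), and PECAM1 was at or under 3 reads in 18 of 37 libraries. In all, 2 of the 4 were called higher with siVPS4A#1 and 2 with siVPS4B#1. Without depletion, 1 was called higher in siCTRL#2 against siCTRL#1 and 1 in siCTRL#1 against NT. With NT as the reference COL1A1 was called in both combined depletions (1.34 and 2.25).

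**Figure D4:**
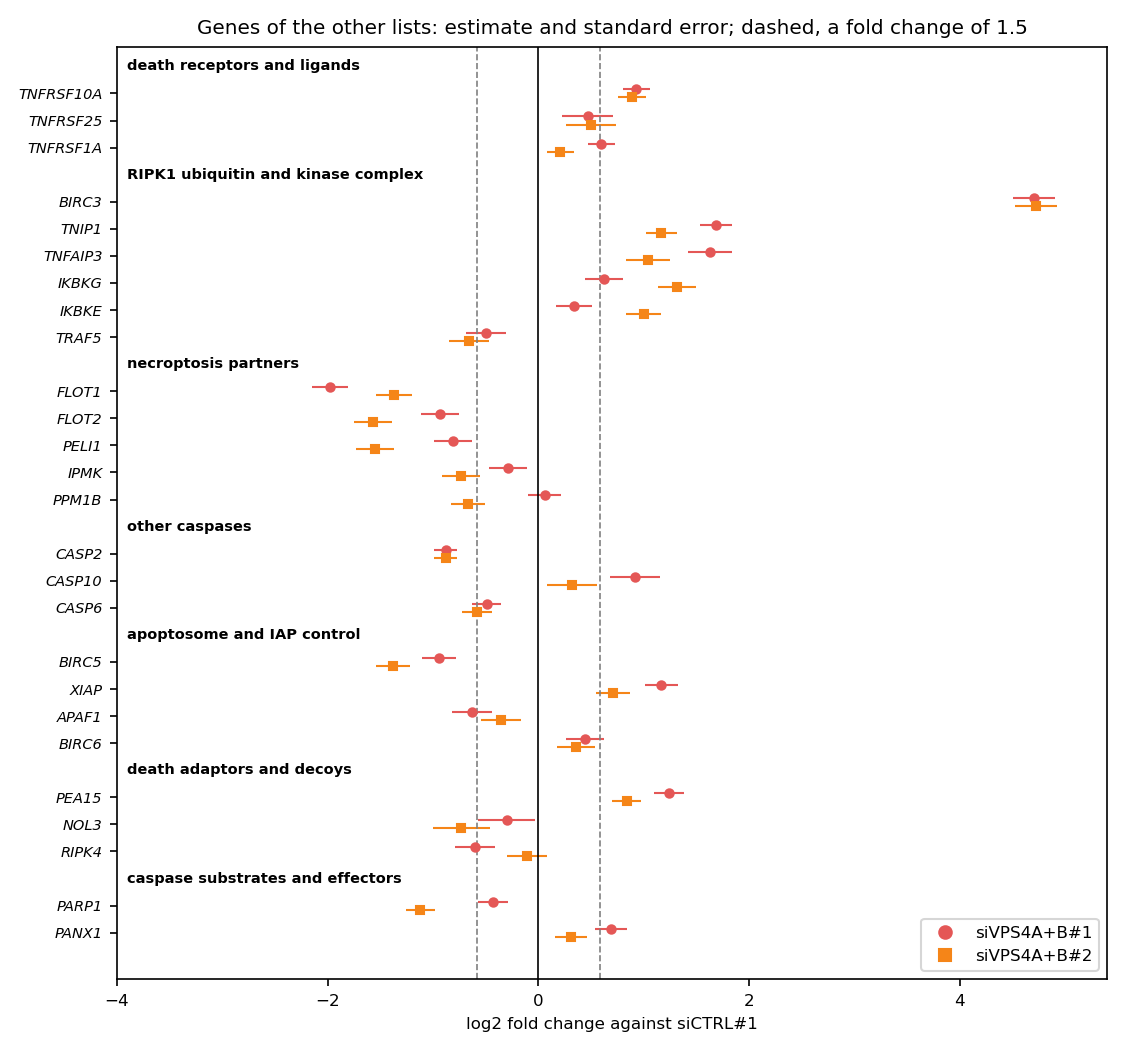
Log2 fold change against siCTRL#1 (horizontal axis) of the named genes of the other lists (vertical axis, grouped by list) in siVPS4A+B#1 (circles) and siVPS4A+B#2 (squares). Bars are standard errors and dashed lines mark a fold change of 1.5; BIRC3 lies far to the right at 4.71 and 4.73, and FLOT1, FLOT2 and PELI1 lie to the left in both.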

How the data were processed

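RNA of HCT116 cells was measured with the Ion AmpliSeq Transcriptome panel in 38 libraries of 9 conditions. The authors aligned the reads to the hg19 panel transcripts and counted them with HTSeq 0.6.0, and the deposited signal of a gene is its share of the library's reads, so that each column sums to 1. For their own test the authors required 10 reads across conditions, and from their list of changed genes they left out those that code for no protein. Whether either step gave the 12627 deposited genes is not stated. In each library the low values are multiples of a common step, the share of a single read, and division by it recovered the reads. Of the low values 100% were whole within 0.1 read, and 50.4% of all values were printed finely enough to be placed within 0.25 read, 100% of them whole. The units found in the files differed from those stated in none of the columns, although in siVPS4B#1 replicate 2 and siCTRL#1 replicate 5 the step lies near a power of 10. RefSeq identifiers were mapped to symbols for 12474 genes, and 153 had none.

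Levels are reads per 1000000 scaled by TMM factors (0.881 to 1.1). limma 3.58.1 in R 4.3.3 tested log2 of the level plus 1, with a trend, in 37 libraries. The design held the 9 conditions and, as a block, the replicate number, and adjusted p values were computed by the method of Benjamini and Hochberg. Standard errors (SE) are those of the fit. edgeR 4.0.16 and DESeq2 1.42.0 were run on the recovered reads as alternatives, and edgeR called 3083 genes for siVPS4A+B#1 and 3938 for siVPS4A+B#2 against siCTRL#1, where limma called 2793 and 3630. Other alternatives changed the scaling, the pseudocount, the filter, the block and the libraries used. Tables and sequence searches were made in Python 3.11.15 (pandas 2.3.3, numpy 2.4.6), and figures in matplotlib 3.10.9.

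The library labelled siVPS4A#1 replicate 2 was left out of the fit because of its depth and profile. Replicate numbers, and the batches they name, come from the labels. After condition means were removed, libraries of the same number correlated at a mean r of 0.19 (137 pairs) and those of different numbers at -0.0831 (529 pairs), with 0.296, 0.0826, 0.339, 0.0145 and 0.373 for replicates 1 to 5.

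The members and the other lists were chosen with earlier results of these data known. From each of the other lists, the text names the genes called in 1 direction for both combined depletions, up to 4 by size of change, and the 2 others with the largest mean change, with any gene absent from the table or near the floor, and for each member called against siCTRL#1 the 3 genes most like it.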

Additional observations from a re-analysis of the deposited data

Results flagged for a closer look

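In 6 of 72 groups of libraries, 1 value lay apart from the others by Dixon's ratio at a confidence level of 95%, where chance alone gives about 1 in 20 groups. RIPK1 was 27.7 reads per 1000000 in siVPS4A#2 replicate 4, against 38.2 to 40.1 in the others of its group. CASP9 was 40.2 in siCTRL#2 replicate 1 (22.4 to 24.6 in the others), 14 in siVPS4A#1 replicate 3 (18.4 to 18.8) and 18.1 in siVPS4B#1 replicate 3 (23.5 to 24.1). CYLD was 20.4 in siVPS4A#2 replicate 3 (15.6 to 16.4), and MLKL was 2.18 in NT replicate 4 (3.11 to 3.2). All of these libraries were kept in the fit.

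Interaction terms were called for CYLD in siVPS4A+B#1 (log2 1.03) and, in siVPS4A+B#2, for CFLAR (1.40), CYLD (1.06) and TRADD (-1.05). The library labelled siVPS4A#1 replicate 2, left out of the fit, held CASP9 at 37.2, CFLAR at 61.5 and CYLD at 42.1, each above all 9 NT and siCTRL#1 libraries. TRADD (4.86, 3 reads) and MLKL (3.24, 2 reads) were also above those libraries, but not above the floor of 3 reads. How many of all genes lay above those libraries was not counted. The cause of these values was not tested.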

How the results depend on the processing

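Over 16 alternatives and 16 comparisons, which left out the single duplexes against NT, the 8 genes gave 2048 values. Of these, 1957 kept their status, 54 lost a call and 37 gained a call. A change of direction was counted only where the value was called in either fit, and 0 were found. Uncalled values could change sign. CASP9 with siVPS4A#1 against siCTRL#1 was at -0.08, or 0.15 with the library labelled siVPS4A#1 replicate 2. Without the replicate block the call of siCTRL#2 against siCTRL#1 fell from 1 to 0 and the members called in all 4 comparisons of combined depletion rose from 1 to 2. With the library labelled siVPS4A#1 replicate 2, siCTRL#2 against siCTRL#1 gave 0 and siVPS4A+B#2 against siVPS4A#1 gave 0 in place of 2. edgeR gave 5 in place of 3 for siVPS4A+B#2 against NT and 2 in all 4 comparisons. DESeq2 gave siVPS4A+B#2 5 against each reference (5 and 5), and 3 in all 4. Without TMM factors, siVPS4A+B#1 had 2 against siCTRL#1, 2 against NT and 1 against siVPS4A#2, and siCTRL#2 had 0. The median of all genes then shifted by -0.17 for siVPS4A+B#1 and -0.13 for siVPS4A+B#2 against siCTRL#1. The size factors of DESeq2 gave 0 for siCTRL#2. A pseudocount of 0.1 gave 2 for siVPS4B#1, 5 for siVPS4A+B#2 against NT and 2 in all 4. A pseudocount of 5, which damps genes of few reads, left 1 call with siVPS4A#1 and 0 with either VPS4B duplex (0 and 0). It left siVPS4A+B#1 with 2 against siCTRL#1 and 2 against NT, siVPS4A+B#2 with 1 against siCTRL#1 and 2 against siVPS4B#2, and siCTRL#2 with 0. It called 1763 and 2398 of all genes for the combined depletions, where the fit called 2793 and 3630. With only the compared conditions in the model, siVPS4A+B#2 against siVPS4A#1 gave 1. Leaving out replicates in turn gave 0 to 1 for each VPS4B duplex. For siVPS4A+B#1 it gave 3 to 4 against siCTRL#1, or 2 without the library siCTRL#1 replicate 4, and 2 to 4 against NT. The count ran from 3 to 5 in siVPS4A+B#2 against NT, 0 to 1 for siCTRL#2, 1 to 3 for siVPS4A+B#2 against siVPS4A#1, 0 to 1 for the interaction in siVPS4A+B#1 and 1 to 2 in all 4 comparisons of combined depletion. CFLAR was called in all 4 comparisons under every alternative, and RIPK1 in none under any. For the calls that changed, the cause was not tested.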
